A study of Homo sapiens with 2 samples.

Results

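The nuclear-encoded subunits of the mitochondrial respiratory chain were described in HEL cells, a human erythroleukemia line, after 24 h with L1 or with the vehicle. Members were all genes of the deposited FPKM table whose symbol follows the naming of complex I (NDUFA, NDUFB, NDUFC, NDUFS and NDUFV with a number), complex II (SDHA to SDHD), complex III (UQCR genes and CYC1), complex IV (COX4 to COX8 genes) or complex V (ATP5 genes), without names that end in P and digits. This gave 83 of the 13924 genes with an FPKM value, out of 61806 genes in the count table. Of the 83 members, 81 encode proteins that were counted as subunits, 36 in complex I, 4 in complex II, 10 in complex III, 13 in complex IV and 18 in complex V. NDUFA4 and its paralog NDUFA4L2 were placed in complex IV, and the inhibitor gene ATP5IF1 was placed in complex V. The other 2 members are non-coding RNA genes, NDUFA6-DT and NDUFB2-AS1.

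The study asked how L1, a 3,3′-diindolylmethane (DIM) derivative, acts on erythroleukemia cells. Both libraries came from HEL cells that the labels give as WT in genotype, one treated with 1 µM L1 and the other with 0.5% DMSO, for 24 h each, and whether the L1 library also received DMSO is not given in its label. Polyadenylated RNA was enriched with capture beads, and each condition is represented by 1 sequenced library. With 1 library per condition no test was run, and a difference between the libraries cannot be told apart from variation between cultures or library preparations.

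The respiratory chain sits in the inner mitochondrial membrane. Complex I takes electrons from NADH and complex II takes them from succinate, and both pass them to ubiquinone. Complex III moves the electrons on to cytochrome c, and complex IV hands them to oxygen. Complexes I, III and IV pump protons, and complex V, the ATP synthase, uses the proton gradient to make ATP. Complexes I, III, IV and V hold subunits from both genomes, nuclear and mitochondrial, while complex II is encoded by the nucleus alone. Surplus subunits that find no partner are degraded. Erythroid cells also use mitochondria to make heme. The nuclear genes lie apart on many chromosomes, and NRF1, the ETS factor GABP (also called NRF2) and YY1 are known activators of many of them.

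The members lie on 22 chromosomes, with 10 of the 83 on chromosome 19. Promoters were taken from the RefSeq promoter table (GRCh38.p14), which matched 65 of the 81 subunit genes with 78 start sites. Each window runs from 250 bases before a start to 50 after it, and motifs were searched on both strands. The ETS motif CCGGAAG lay in 28.2% of the subunit windows, in 17.7% of the 14375 windows of genes with an FPKM value and in 10.3% of all 35116 windows of the table. The NRF1 motif GCGCATGC lay in 19.2%, 4.85% and 3.05%, and the YY1 motif AAGATGGC in 16.7%, 4.93% and 2.89%. At least 1 of the 3 lay in 50% of the subunit windows and in 24.9% of those of genes with an FPKM value. The Sp1 box GGGCGG was about as frequent in the subunit windows (64.1%) as in those of genes with an FPKM value (65.6%), and so was CCAAT, at 33.3% and 35.3%. TATAAA lay in 7.69% and 6.22%. None of these motifs is contained in another, and a match is a description of letters, not of binding.

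The 150 bases before the start are printed 5′ to 3′ on the strand of the gene for the members with an entry whose L1 over DMSO ratio was lowest (NDUFA5, chr7:123557819-123557968, minus strand, and ATP5MG, chr11:118401456-118401605, plus) or highest (ATP5MK, chr10:103396476-103396625, minus, and NDUFS6, chr5:1801257-1801406, plus), and for SDHB (chr1:17054033-17054182, minus), whose stretch holds an ETS motif. Capitals mark the motifs named above.
NDUFA5: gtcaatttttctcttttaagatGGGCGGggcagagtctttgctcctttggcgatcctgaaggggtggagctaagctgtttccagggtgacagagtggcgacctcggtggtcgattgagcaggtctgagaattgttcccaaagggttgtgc
ATP5MG: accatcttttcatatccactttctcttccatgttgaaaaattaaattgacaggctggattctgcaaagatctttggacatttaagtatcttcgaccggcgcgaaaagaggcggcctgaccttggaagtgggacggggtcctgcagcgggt
ATP5MK: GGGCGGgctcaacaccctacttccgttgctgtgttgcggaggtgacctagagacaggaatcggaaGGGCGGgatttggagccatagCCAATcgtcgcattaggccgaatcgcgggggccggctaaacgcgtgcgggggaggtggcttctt
NDUFS6: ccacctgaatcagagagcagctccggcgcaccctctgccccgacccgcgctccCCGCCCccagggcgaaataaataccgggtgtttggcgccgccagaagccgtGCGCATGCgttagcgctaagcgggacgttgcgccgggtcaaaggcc
SDHB: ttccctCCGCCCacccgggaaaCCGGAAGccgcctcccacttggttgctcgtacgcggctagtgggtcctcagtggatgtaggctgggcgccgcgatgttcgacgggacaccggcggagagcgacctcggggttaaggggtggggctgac
The stretch of NDUFS6 holds the NRF1 motif GCGCATGC, that of SDHB the ETS motif and an Sp1 box, and that of ATP5MG none of the motifs searched within these 150 bases. Across the 65 genes, the median log2 ratio of L1 over DMSO was 0.07 with an NRF1 motif (14 genes) and 0.01 without (51). For the ETS motif the medians were 0.06 (21 genes) and 0.0043 (44), and for Sp1 0.032 (43) and 0.0072 (22). The other motifs went the other way. Medians with and without were 0.015 (12 genes) and 0.022 (53) for YY1, -0.013 (23) and 0.057 (42) for CCAAT, and 0.015 (6) and 0.022 (59) for TATAAA. These are differences between medians of 2 libraries and were not tested.

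The DMSO library held 32556872 counts and the L1 library 27135647. They were scaled by edgeR's TMM method, which made the DMSO library 1.16 times as large as the L1 library, and all ratios below are log2 ratios of L1 over DMSO. All 9 genes of the erythroid marker list had at least 10 counts, among them GATA1, KLF1 and HBG2. The list summed to 53289 counts with DMSO and 59439 with L1, in which HBG1 had 5620 and 16681, and without HBG1 it summed to 47669 and 42758. TAL1 had 13361 and 8138 counts. The part of these markers in the results below was not tested. Of 5 megakaryocyte markers 4 were counted, with 58525 and 45233 counts, and PF4 was at 0 in both libraries. Markers of both lineages were thus present, and these counts do not set 1 lineage above the other. Among T cell, B cell and fibroblast markers, CD3D, CD3E and MS4A1 were at 0, while CD2 (57 and 55) and CD79A (113 and 60) had counts and the 3 fibroblast genes summed to 2 and 11. In bulk RNA, fewer cells of a type and less RNA per cell cannot be told apart.

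As a group, the nuclear-encoded subunits stayed close to the level of the DMSO library. All 83 members together had 336184 counts with DMSO and 287495 with L1, which is 1.03% and 1.06% of the libraries, and the log2 ratio of the sums was -0.01. Their median log2 ratio was 0.02, with quartiles at -0.10 and 0.11, and 46 members lay above 0 and 37 below. Of the 83, 69 differed by less than 1.2-fold in either direction, 7 were higher by more and 7 lower by more, against 20.9% and 24.4% of genes with an FPKM value. The members had an interquartile range of 0.21, against 0.46 over all genes with an FPKM value (median -0.02). This narrow spread was not particular to them. Among the other lists described below, the range was 0.19 for TCA cycle genes, 0.24 for regulators of respiratory genes and 0.26 for ADP/ATP and phosphate carriers. It was 0.41 for electron carriers and for assembly factors, and 0.49 for mitochondrially encoded subunits. The members were also deeply counted, 80 of them with at least 1000 counts over both libraries. Among the 8456 genes with an FPKM value and as many counts, the quartiles were -0.22 and 0.16, and 37.3% of genes were past 1.2-fold in either direction. Of the 80 members with as many counts, 13 were past 1.2-fold (16.25%). Past 1.5-fold there were 4 of these 80 (5%), against 11.0% of the 8456 genes. Both groups share the minimum of 1000 counts but were not matched in depth. The median count with DMSO was 2956.5 in the 80 members and 1756.5 in the 8456 genes.

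**Figure D1:**
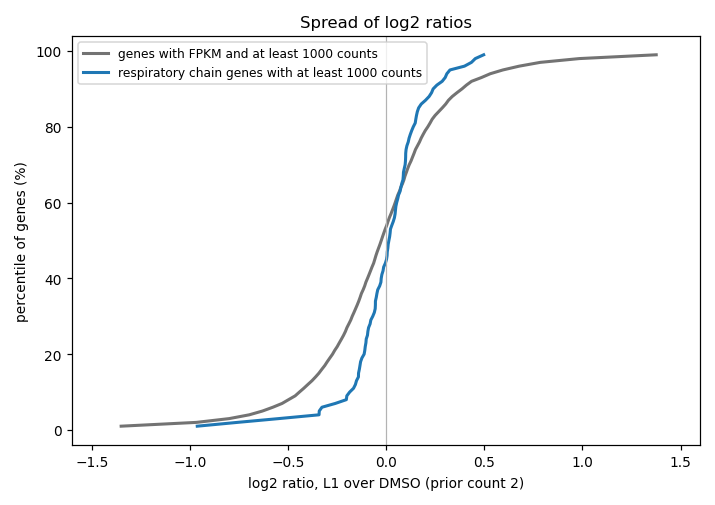
Cumulative distribution of log2 ratios of L1 over DMSO (x axis, prior count 2) in percentiles of genes (y axis), for the 80 members (blue) and the 8456 genes with an FPKM value (grey) that had at least 1000 counts over both libraries. The blue curve is the steeper one, with its tails reaching a few members only.

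Few members differed by 1.5-fold or more. NDUFB9 was the only member higher with L1 by 1.5-fold or more, where 7.63% of genes with an FPKM value were. NDUFA5, ATP5F1D and ATP5MG were at least 1.5-fold lower, against 8.16% of genes with an FPKM value. No member was at least 2-fold higher (2.85% of genes with an FPKM value were), and NDUFA5 alone was at least 2-fold lower (2.55%). The counting intervals, which are exact 95% Clopper-Pearson intervals of the split of a gene's counts and cover counting error only, lay wholly above 0 for 30 members and wholly below 0 for 25. The same held for 28.5% and 33.6% of genes with an FPKM value. Such intervals are narrow at these counts and say nothing of the spread between cultures.

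The 5 complexes had medians within 0.1 of each other on the log2 scale. The median log2 ratio was 0.04 in complex I, 0.05 in complex II, -0.0047 in complex III, -0.03 in complex IV and 0.01 in complex V. The medians of complexes I and II were above 0 under all alternatives tried, but complexes III and IV turned to 0.04 and 0.02 with total counts scaling, and complex V to -0.03 with DESeq2 size factors. Sums of counts had log2 ratios of 0.04 for complex I (80208 counts with DMSO and 71002 with L1), -0.07 for complex II (13949 and 11481), -0.0030 for complex III (52889 and 45533), -0.02 for complex IV (50414 and 43014) and -0.04 for complex V (138598 and 116351). In complex II the sum lay below 0 although the median lay above it, since SDHA has the most counts of its 4 genes and the lowest ratio. The spread within complexes I, III, IV and V was larger than the distance between the medians. The interquartile range was 0.25 in complex I, 0.14 in complex III, 0.21 in complex IV and 0.17 in complex V. The share of members within 1.2-fold was 80.6% in complex I, 90% in complex III, 92.3% in complex IV and 77.8% in complex V, and 3 of the 4 genes of complex II were.

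**Figure D2:**
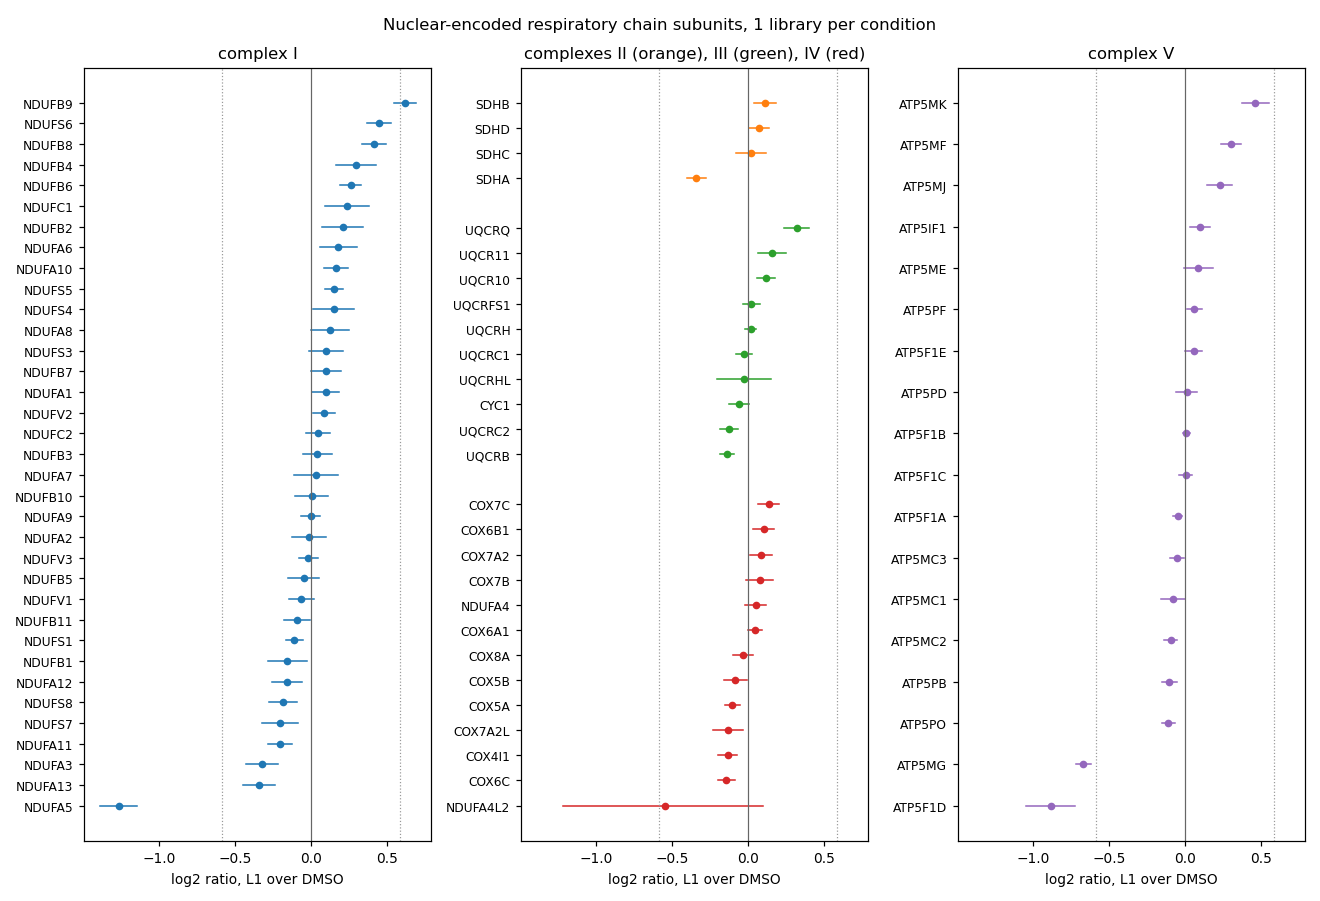
Log2 ratio of L1 over DMSO (x axis) for 80 of the 81 subunit genes, 1 gene per line, in 3 panels for complex I, complexes II to IV and complex V. Points are ratios without a prior count, bars are exact 95% intervals that cover counting error only, and dotted lines mark 1.5-fold. Most points lie near 0, and NDUFA5, ATP5F1D and ATP5MG lie left of the dotted line while NDUFB9 lies right of it.

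Complex I has an arm in the matrix, where NADH is oxidised, and an arm in the membrane, where protons are pumped. Its 7 nuclear-encoded core subunits, which take part in electron transfer, were all within 1.2-fold and had a median log2 ratio of -0.06. NDUFV1, which binds NADH and FMN, had 2632 counts with DMSO and 2171 with L1 (-0.06, interval -0.15 to 0.02). The largest core subunit, NDUFS1, which holds several iron-sulfur clusters, had 6250 and 4996 counts (-0.11, -0.16 to -0.06). Both genes stayed within the 1.2-fold mark. The iron-sulfur subunits NDUFS7 (1396 and 1046 counts, -0.20, interval -0.32 to -0.09) and NDUFS8 (2124 and 1612, -0.18, -0.28 to -0.09) were at the low end of the core. NDUFV2 was at the high end with NDUFS3, at 3058 and 2798 counts (0.08, 0.01 to 0.16). NDUFS3 had 1333 and 1232 counts (0.10, -0.01 to 0.21), but its exons overlap PTPMT1 on the same strand (936 and 665 counts), and with both summed the sign turned, to -0.05.

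The accessory subunits of complex I surround the core and are needed for its assembly and stability. The 20 accessory subunits of the membrane arm had a median log2 ratio of 0.10, with 14 above 0, and the 9 of the matrix arm a median of -0.0018, with 4 above 0. Of the 13924 genes with an FPKM value, 6586 lay above 0. The membrane arm genes summed to 41322 counts with DMSO and 38498 with L1 (log2 ratio 0.11). Some of them have uncertain ratios. With overlapping genes summed, NDUFB8 went from 0.41 to 0.09, NDUFB2 from 0.21 to 0.10 and NDUFA13 from -0.34 to -0.22. NDUFB9 overlaps MTSS1 on the opposite strand, as described below. The arms were not compared by a test.

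NDUFA5, an accessory subunit of the matrix arm, had the lowest ratio of all members. It had 2075 counts with DMSO and 743 with L1, a log2 ratio of -1.27 with an interval from -1.39 to -1.15, and its FPKM went from 4.75 to 1.97. Its ratio was far from that of the next lowest complex I gene, NDUFA13, at -0.34. NDUFA5 (ENSG00000128609) lies on chromosome 7 from 123536997 to 123558255 (GENCODE 29, GRCh38) on the minus strand. No gene overlaps it on the same strand there, and it shares 3.71% of its 31-base words with other genes. Its 12 named pseudogenes had 25 and 10 counts, and the ratio with them summed was again -1.27. The length behind its FPKM value was 13647 bases, against 9851 for the merged exons in GENCODE 29, so that length does not match this release.

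NDUFB9, a membrane arm subunit, had the highest ratio, with 2944 counts with DMSO and 3899 with L1 (0.62, interval 0.55 to 0.69). The length behind its FPKM value was 16481 bases, 4.01 times its merged exons in GENCODE 29 (4106 bases, chromosome 8 from 124539101 to 124580648). On the opposite strand NDUFB9 overlaps MTSS1, an actin-binding protein gene that had 8976 and 11051 counts (0.51), and TATDN1 (710 and 578, -0.08). Strand use in counting was not stated in the sources used here. Whether MTSS1 or TATDN1 reads entered the NDUFB9 counts was not tested.

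NDUFS6, a zinc-binding subunit of the matrix arm, had 2348 counts with DMSO and 2761 with L1 (0.45, interval 0.37 to 0.53), with none of its words in another gene. NDUFB8, of the membrane arm, had 2283 and 2624 counts (0.41, 0.33 to 0.50). This value moved when overlapping genes were summed: ENSG00000255339, which overlaps NDUFB8 on the same strand, had 917 and 309 counts, and the ratio of the sum was 0.09. NDUFA13, also known as GRIM-19, had 1838 and 1250 counts (-0.34, -0.45 to -0.24), and -0.22 with the overlapping genes YJEFN3 (14 and 149 counts) and ENSG00000258674 (47 and 9) summed. NDUFA3 had 1826 and 1259 counts (-0.32, -0.43 to -0.22) with no overlap on its strand. On the opposite strand NDUFA3 overlaps TFPT (599 and 428 counts, -0.27), and whether TFPT reads entered the NDUFA3 counts was not tested. Among the other accessory subunits the ratios ran from -0.20 (NDUFA11) to 0.30 (NDUFB4). NDUFAB1, the acyl carrier protein of complex I, has a name outside the naming rule, and had 1928 and 1884 counts (0.18).

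Complex II, succinate dehydrogenase, is both a respiratory complex and an enzyme of the TCA cycle. SDHA, the flavoprotein that oxidises succinate, had 5260 counts with DMSO and 3581 with L1 (-0.34, interval -0.40 to -0.28). The other 3 genes had ratios at or above 0. SDHB, the iron-sulfur subunit, had 3072 and 2864 counts (0.11, 0.04 to 0.19). The membrane anchors SDHC (1856 and 1623, 0.02, -0.08 to 0.12) and SDHD (3761 and 3413, 0.07, 0.01 to 0.14) bind heme and ubiquinone. SDHA has 4 named pseudogenes in the table, which had 1630 and 1324 counts, and with them summed its ratio was -0.28, so its interval still lay apart from those of SDHB, SDHC and SDHD.

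Complex III had the narrowest interquartile range of the complexes. Its redox subunits differed little: CYC1, which encodes cytochrome c1, had 4045 counts with DMSO and 3355 with L1 (-0.06, interval -0.12 to 0.01), and UQCRFS1, the Rieske iron-sulfur protein, had 5959 and 5219 (0.02, -0.03 to 0.08). The small subunits were at both ends. UQCRQ had 2251 and 2425 counts (0.32, 0.24 to 0.40), UQCR11 had 1943 and 1868 (0.16, 0.06 to 0.25) and UQCR10 had 4719 and 4416 (0.12, 0.06 to 0.18). UQCRB, which helps bind ubiquinone, had 8620 and 6743 (-0.14, -0.19 to -0.10), and the core protein gene UQCRC2 had 5421 and 4291 (-0.12, -0.18 to -0.07). UQCRH, the hinge protein gene, had 12989 and 11333 counts (0.02), and its intronless copy UQCRHL had 557 and 472 (-0.03). UQCRHL shares 20.7% of its words with other genes, so the split of reads between both copies is uncertain.

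The nuclear-encoded subunits of complex IV surround a catalytic core that mitochondrial DNA encodes. Apart from NDUFA4L2, all were within 1.2-fold. COX7C had 3225 counts with DMSO and 3056 with L1 (0.14, interval 0.06 to 0.21), COX6B1 had 3573 and 3311 (0.10, 0.03 to 0.17) and COX7A2 had 3204 and 2936 (0.09, 0.01 to 0.16). COX6C, at 5580 and 4363 (-0.14, -0.20 to -0.08), and COX4I1, which joins the core early in assembly, at 4264 and 3350 (-0.13, -0.20 to -0.07), lay lowest. The other 12 genes thus lay between -0.14 and 0.14 on the log2 scale. NDUFA4L2, a paralog of NDUFA4 known as a hypoxia-induced gene, had 56 and 33 counts, and its interval (-1.22 to 0.10) included 0. The tissue-restricted isoform genes COX4I2, COX6A2, COX6B2, COX7A1 and COX8C had 0 counts in both libraries and no FPKM value, and COX7B2 had 0 and 2.

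Complex V turns proton flow into rotation. The catalytic genes ATP5F1A (alpha; 20341 counts with DMSO and 16994 with L1) and ATP5F1B (beta; 31323 and 27181) were the most counted members, with ratios of -0.05 (interval -0.08 to -0.02) and 0.01 (-0.02 to 0.03). The direction of both depended on scaling: with total counts ATP5F1A stood at 0.0034 and ATP5F1B at 0.06, and with DESeq2 size factors ATP5F1B stood at -0.02. The 3 genes that encode the same c subunit of the rotor ring, ATP5MC1 (2723 and 2225, -0.08), ATP5MC2 (9089 and 7348, -0.09) and ATP5MC3 (8181 and 6793, -0.06), lay close to each other. ATP5PO, the stalk protein OSCP, had 9631 and 7704 counts (-0.11, -0.15 to -0.07).

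The 2 lowest genes of complex V encode small parts. ATP5F1D, the delta subunit of the central stalk (ENSG00000099624, chromosome 19 from 1241746 to 1244826), had 970 counts with DMSO and 453 with L1 (-0.89, interval -1.05 to -0.72), and its FPKM went from 13.6 to 7.34. ATP5F1E, the epsilon subunit that binds delta, had 5382 and 4832 counts (0.06). ATP5MG, the g subunit of the membrane part (ENSG00000167283, chromosome 11 from 118401154 to 118431496), had 9618 and 5219 counts (-0.67, -0.72 to -0.62), and its FPKM went from 36.2 to 22.8. The other membrane accessory genes went the other way or stayed near 0. ATP5MK, the DAPIT protein gene, had 1789 and 2130 counts (0.46, 0.37 to 0.56), ATP5MF, the f subunit, 3752 and 3999 (0.31, 0.24 to 0.37), ATP5MJ 2310 and 2335 (0.23, 0.15 to 0.31) and ATP5ME 1941 and 1780 (0.09, -0.01 to 0.18). ATP5MG and ATP5ME encode the g and e subunits, which bind each other where ATP synthases pair at the cristae rims. ATP5F1D overlaps no gene on its strand, and ATP5MG overlaps ENSG00000285827 on its strand, with 2 counts in each library. The length behind the FPKM value of ATP5MG was 2.45 times its merged exons (8303 and 3382 bases). ATP5IF1, which blocks ATP hydrolysis by complex V, had 3986 and 3683 counts (0.10, 0.03 to 0.16).

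The levels of the subunits differed far more than the libraries did. FPKM, which divides counts by the length of a gene model and the library size, ran in DMSO from 4.22 (NDUFA10) to 440 (ATP5F1B) among subunit genes other than NDUFA4L2 (0.63). The next highest were UQCRH at 305, COX8A at 278, NDUFS5 at 249 and COX6A1 at 202. Summed FPKM was 1271 in DMSO and 1375 in L1 for complex I, 134 and 136 for complex II, 772 and 792 for complex III, 1060 and 1051 for complex IV, and 1459 and 1475 for complex V. So the order of the complexes by summed level was the same in both libraries. The order of single genes was nearly kept as well, with a Spearman correlation of 0.989 between the libraries across the 81 subunit genes, which share gene models and scaling. It depended on the length used: FPKM and counts per kilobase of mRNA had a Spearman correlation of 0.72 across the same genes in DMSO. The FPKM values are the same counts divided by length and by one ratio for the libraries, so they are no second measurement of the change.

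**Figure D3:**
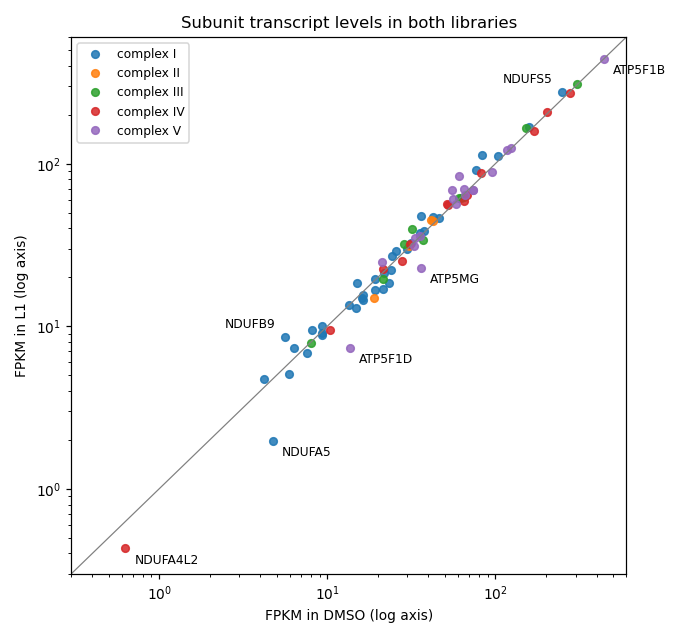
FPKM of the 81 subunit genes in the DMSO library (x axis) and the L1 library (y axis), both on log axes, coloured by complex, with the line of equal FPKM. Points follow the line from NDUFA4L2 to ATP5F1B, and NDUFA5, ATP5F1D and ATP5MG lie below it.

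The mitochondrially encoded partners of these subunits had lower ratios than most of them, a difference that was not tested. All 13 had ratios below 0, with a median of -0.61, and 7 were at least 1.5-fold lower. Of genes with an FPKM value, 52.7% had ratios below 0 and 8.16% were at least 1.5-fold lower. In complex I, MT-ND1 (-0.13), MT-ND2 (-0.17), MT-ND6 (-0.15) and MT-ND3 (-0.27) lay near the nuclear core subunits, while MT-ND4 (-0.96), MT-ND5 (-0.88) and MT-ND4L (-0.72) lay far below them. MT-CYB of complex III was at -0.76 beside -0.06 for CYC1. In complex IV, MT-CO1 (-0.56), MT-CO2 (-0.56) and MT-CO3 (-0.61) lay below every nuclear partner, NDUFA4L2 included, though its interval covers them. MT-ATP6 (-0.69) and MT-ATP8 (-1.11) stood beside ATP5F1D and ATP5MG at the low end of complex V. The 13 genes held 2948746 counts with DMSO and 1677994 with L1, and their part in the scaling was not tested. Total counts scaling, which counts them in full, moved every ratio up by 0.05.

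**Figure D4:**
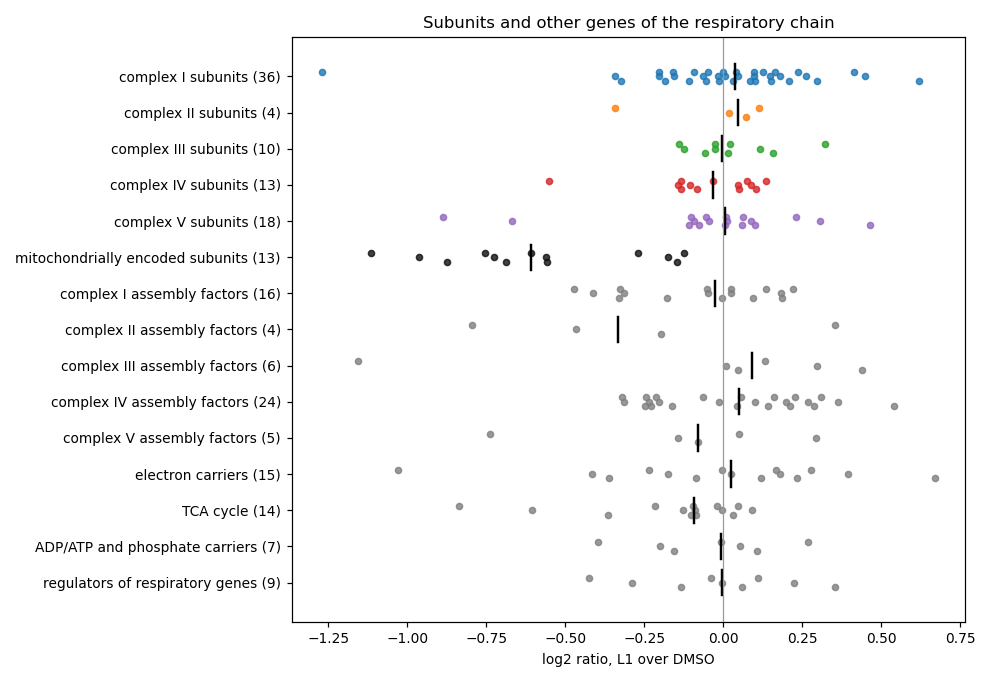
Log2 ratio of L1 over DMSO (x axis) of single genes (points) for the subunits of each complex and for other lists, with the number of genes in brackets and the median as a black line. The 13 mitochondrially encoded subunits all lie below 0 with a median of -0.61, and the medians of the 5 groups of nuclear-encoded subunits lie near 0.

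Assembly factors build the complexes without staying in them. Over the 55 assembly factors of the lists the median log2 ratio was 0.01, with 3 at least 1.5-fold lower and 0 at least 1.5-fold higher (8.16% and 7.63% of genes with an FPKM value were) and quartiles at -0.23 and 0.18, a wider spread than that of the subunits. LYRM7, which helps insert the Rieske protein into complex III, had 3141 counts with DMSO and 1216 with L1 (-1.16, interval -1.25 to -1.06). SDHAF1, which aids iron-sulfur insertion into SDHB, had 173 and 86 counts (-0.80, -1.19 to -0.41), and ATPAF1, a chaperone of the F1 part of complex V, had 625 and 323 (-0.74, -0.94 to -0.54). By complex the medians were -0.03 for complex I (16 genes), -0.33 for complex II (4), 0.09 for complex III (6), 0.05 for complex IV (24) and -0.08 for complex V (5). The client subunits of LYRM7 and SDHAF1, UQCRFS1 and SDHB, had ratios of 0.02 and 0.11. In the F1 part, ATP5F1D was at -0.89 and the other genes lay between -0.05 (ATP5F1A) and 0.06 (ATP5F1E).

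Among 15 genes of the mobile carriers and ubiquinone synthesis the median was 0.02. COQ7, a hydroxylase of ubiquinone synthesis, had 407 and 172 counts (-1.03, interval -1.30 to -0.77), and ETFDH, which passes electrons from fatty acid oxidation to ubiquinone, had 875 and 1200 (0.67, 0.54 to 0.80). The 14 TCA cycle genes had a median of -0.09, with IDH2 (6153 and 3489, -0.61) and SUCLG2 (807 and 390, -0.84) past 1.5-fold. The 7 ADP/ATP carrier, phosphate carrier and VDAC genes had a median of -0.01 and none past 1.5-fold. Of the 10 regulators of respiratory genes, PPARGC1A had 0 counts in both libraries and the other 9 had a median of -0.0040, none past 1.5-fold. Of these 9, 4 lay above 0 and 5 below. NRF1 had 720 and 670 counts (0.11), GABPA, the DNA-binding part of GABP, 2990 and 2687 (0.06), and YY1 5435 and 5470 (0.22). Among those below 0, GABPB1 had 1642 and 1159 counts (-0.29), PPARGC1B 1480 and 951 (-0.43) and PPRC1 5178 and 4073 (-0.13).

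Some subunit genes share a start region with a neighbour. A coding gene on the opposite strand, with no exon overlap, began within 1000 bases of 15 of the 81 subunit genes (18.5%). The share was 10.1% of the 11592 coding genes with an FPKM value. Opposite-strand neighbours whose exons overlap a subunit gene are not among these pairs. Examples are GABPA (0.06), which overlaps ATP5PF (0.06), and TIMM8B (0.14), which overlaps SDHD (0.07). Beside NDUFS6 (0.45) stands MRPL36, a mitochondrial ribosomal protein gene, with 794 counts with DMSO and 835 with L1 (0.29, interval 0.14 to 0.43). Beside ATP5MK (0.46) stands PDCD11, a ribosome biogenesis gene, with 3548 and 3961 (0.37, 0.31 to 0.44). The pairs did not always go together: SDHA (-0.34) stands beside CCDC127 (0.22), and NDUFB1 (-0.16) beside CPSF2 (0.19).

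The members nearest to the edge of the choice were the non-coding ones. NDUFB2-AS1, antisense to NDUFB2, had 35 counts with DMSO and 33 with L1, and NDUFA6-DT had 91 and 81, and the intervals of both included 0. Just outside, ATP5MGL had 2 and 4 counts and no FPKM value, and the readthrough genes ATP5MF-PTCD1 (2 and 3) and NDUFC2-KCTD14 (3 and 2) were as low. The lowest CPM of a gene with an FPKM value was 1.01. The names set aside for ending in P and digits were the processed pseudogenes COX6A1P2 (271 and 146 counts), NDUFV2P1 (107 and 53) and UQCRFS1P1 (183 and 94).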

How the data were processed

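HEL cells gave 1 RNA-seq library per condition (DMSO and L1). The authors trimmed and aligned the reads (fastp 2.0, HISAT2 2.1.0 and StringTie are named in the submitters' processing notes, with the build hg38) and deposited raw read counts per Ensembl gene, not normalized. FPKM values, also deposited, cover genes at about 1 CPM or more in both libraries. These FPKM values are the counts divided by a gene model length and by 1 library ratio (1.16), which equals the TMM ratio. The counting program, the annotation release and the use of strand are not given in the sources used here.

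TMM factors came from edgeR 4.0.16 and size factors from DESeq2 1.42.0 in R 4.3.3, and other steps used Python 3.11.15 with scipy 1.17.1. Ratios over groups used a prior count of 2 and genes with at least 10 counts in 1 library. Ratios of single genes carry no prior count and have exact 95% Clopper-Pearson intervals that cover counting error only. No test could be made. Positions, overlaps, lengths and shared 31-base words came from GENCODE 29 (GRCh38), which holds 58254 of the 61806 gene identifiers, and promoters from RefSeq (GRCh38.p14). The code was tested on simulated data of the same depth. The members and lists were chosen with earlier results of these data known, and the module of each subunit was assigned after the member names were seen. Named are the 3 highest and 3 lowest genes of each complex, members past 1.5-fold, core, catalytic and c ring genes, and list genes past 1.5-fold. The results of some of these genes and of a marker are not given here. Genes named beyond that rule were chosen after their values were seen. Alternatives were other scalings, FPKM, prior counts, minimum counts and thresholds, summed overlapping genes or pseudogenes, and a correction for GC content and length.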

Additional observations from a re-analysis of the deposited data

How the results depend on the processing

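No paired analysis was possible because 1 library stands for each condition. Of 185 alternative values for the medians and counts, 174 were counted as close to the reported value. This count says little about stability, because several alternatives could hardly move a median. FPKM values are the same counts with the same library ratio, and dropping the minimum count left each value it was tried on unchanged. Close was also a wide mark. It took in medians of 0.11 in complex I (reported 0.036) and -0.13 in complex IV (reported -0.034). Both come from the members with little shared sequence and no overlap. The median log2 ratio of all members was 0.066 with total counts scaling and turned below 0 with the trend on GC content and length removed (-0.027) and with DESeq2 size factors (-0.015). The 1 member at least 1.5-fold higher, NDUFB9, was lost with log2(FPKM + 1), with the GC and length trend removed, and among the 25 members with little shared sequence and no overlap (0 in each case, NDUFB9 not being among the 25). The 3 at least 1.5-fold lower became 1 among these 25, since ATP5F1D and ATP5MG are not among them. The 1 at least 2-fold lower became 0 with log2(FPKM + 1). With a threshold of 1.2-fold the counts were 7 higher and 7 lower (20.9% and 24.4% of genes with an FPKM value), and with the whole interval on 1 side of 0 they were 30 and 25 (28.5% and 33.6%). For 41 named genes, 270 of 287 values stayed within the counting interval, and 5 changed sign: ATP5F1A with total counts scaling (0.0034), ATP5F1B (-0.023), SDHC (-0.012) and UQCRFS1 (-0.0095) with DESeq2 size factors, and NDUFS3 with overlapping genes summed (-0.045). Medians near 0 also changed sign, in 16 values over 8 medians, mostly with another scaling. Some of these values were among the 174 counted as close. Some of the 287 gene values could not move either, such as sums for genes without pseudogenes or overlapping genes. The subset of 25 members and the subunit genes without the non-coding members were chosen after seeing the data. Depth limits NDUFA4L2, NDUFA6-DT and NDUFB2-AS1, which have under 1000 counts. The spread between cultures was not measured.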
